A study of Mus musculus with 162 samples.

Results

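The 10 genes described here encode acute phase proteins, plasma proteins whose output changes within hours to days of infection, injury or other stress. They are Saa1, Saa2, Saa3, Orm1, Orm2, Hp, Hpx, Fgb, Apcs and Itih4, and each was found by its gene symbol in the deposited count table, so that they make 10 of 53686 genes. The samples came from 18 male C57BL/6J mice aged 8 to 9 weeks and housed in groups, which either kept free access to food (0 h) or went without it for 2, 8, 12, 18 or 22 h, with 3 mice at each of the 6 times. Each mouse gave 9 organs. These were the liver (LIV), the stomach (STM), 3 fat depots, namely brown fat from between the shoulder blades (iBAT), white fat from around the gonads (pgWAT) and white fat from under the skin of the rear body (psWAT), and 4 pieces of the brain, namely the olfactory bulb (OB), the cerebellum (CBL), the brainstem (BST) and what remained (BRN). A library is the mRNA of 1 organ of 1 mouse. In the liver, hepatocytes make most circulating acute phase proteins, and interleukin-6 acting through Stat3, interleukin-1 acting through NF-kB, and C/EBP factors and glucocorticoids are the known inducers. Adipocytes and macrophages of fat also transcribe some of these genes, above all haptoglobin, orosomucoid and Saa3.

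Of 162 libraries 5 with low totals were left out and the others retained. Total counts per retained library ran from 3045845 to 27801717, with a median of 8735554, and in LIV from 6959200 to 12451777, with a median of 8642327. In the smallest library 3 counts, taken as the floor, equal 0.985 CPM (counts scaled to a common library total), and in the smallest libraries of LIV, iBAT, pgWAT and psWAT they equal 0.431, 0.951, 0.519 and 0.732 CPM. These floors cover counting error alone, whereas each SD below is a spread between mice. Levels are CPM with the library total scaled by its TMM factor, called normalized CPM, and in LIV these factors were 0.559 to 0.687, so that normalized values there exceed the CPM of the library total. Members were tested in an organ where at least 3 libraries reached the CPM that equals 10 counts in a library of median size. All 10 were kept in LIV, 7 in pgWAT (not Saa1, Saa2 or Apcs), 5 in STM (Orm1, Hp, Hpx, Fgb and Itih4), 4 in psWAT (Saa3, Orm1, Hp and Itih4), 3 in iBAT (Orm1, Hp and Itih4), 1 in OB (Hp), 1 in BRN (Hpx) and 0 in CBL and BST.

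The serum amyloid A genes lie together on chromosome 7 of the mouse genome GRCm38: Saa1 (ENSMUSG00000074115) at chr7:46740497-46742980 and Saa3 (ENSMUSG00000040026) at chr7:46711998-46715700, both on the minus strand, and Saa2 (ENSMUSG00000057465) at chr7:46751790-46754313 on the plus strand. The orosomucoid genes are neighbours on the plus strand of chromosome 4, Orm1 (ENSMUSG00000039196) at chr4:63344560-63348163 and Orm2 (ENSMUSG00000061540) at chr4:63362449-63365878. The other 5 stand apart: Hp (ENSMUSG00000031722) at chr8:109575128-109579172, Hpx (ENSMUSG00000030895) at chr7:105591613-105600137, Fgb (ENSMUSG00000033831) at chr3:83040141-83049863 and Apcs (ENSMUSG00000026542) at chr1:172893961-172895041 on the minus strand, and Itih4 (ENSMUSG00000021922) at chr14:30886476-30902353 on the plus strand. Near-identical copies could have split reads: the Saa1 and Saa2 transcripts are 93.9% identical and those of Orm1 and Orm2 91%, although no window of 150 bases is shared in full. The separate levels of Saa1 and Saa2, and of Orm1, Orm2 and their paralog Orm3, are therefore uncertain.

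Together the 10 genes took up 1.36% ± 0.563 (SD, n = 18) of all counts in LIV, 0.436% ± 0.157 (n = 18) in pgWAT, 0.0896% ± 0.0332 (n = 17) in iBAT and 0.0506% ± 0.0478 (n = 17) in psWAT. In STM the share was 0.00398% ± 0.00819 (n = 17), and in OB, BRN, CBL and BST it was between 0.000103% and 0.000152%. Haptoglobin (Hp), which binds free haemoglobin, was the member with the highest level per kilobase of transcript in LIV, at 6489 ± 2669 normalized CPM per kb (SD, n = 18). Haemopexin (Hpx), which binds free haem, followed at 3933 ± 1776. Then came the carrier protein orosomucoid 1 (Orm1) at 1143 ± 434.4, the fibrinogen beta chain (Fgb) at 987.0 ± 403.2, and Saa1, an apolipoprotein of high-density lipoprotein, at 624.6 ± 1317. Lower still were Itih4, of the inter-alpha-trypsin inhibitor family, at 484.1 ± 119.5, Saa2 at 382.8 ± 1032, the pentraxin Apcs (serum amyloid P component) at 94.2 ± 41.7, Orm2 at 64 ± 99.2 and Saa3 at 46.5 ± 54.2. Neighbours in this order overlapped within 1 SD, except Hpx and Orm1. The order depends on the length used. Per kb of all exon bases of the gene, Saa1 at 153.5 lay below Itih4 at 391.0. On that scale Saa2 at 92.1 lay below Apcs at 94.2. A few high mice also carry the mean of Saa1, which was 380.4 normalized CPM against a median of 78.6.

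Outside LIV, Hp was the most widely expressed of the 10. Its mean level was 8727 ± 3590 normalized CPM in LIV (SD, n = 18), 3988 ± 1583 in pgWAT (n = 18), 1163 ± 408.8 in iBAT (n = 17), 382.6 ± 387.9 in psWAT (n = 17) and 22.2 ± 37.4 in STM (n = 17). Within 1 SD the neighbours LIV and pgWAT overlapped, as did iBAT and psWAT, while pgWAT and iBAT did not. Orm1 averaged 885.5 ± 336.7 in LIV, 140.3 ± 72.2 in pgWAT, 75.8 ± 26.1 in iBAT, 31 ± 33.6 in psWAT and 2.84 ± 4.89 in STM. Saa3, the form that fat cells and macrophages transcribe, averaged 25.8 ± 30.1 in LIV, 13 ± 4.78 in pgWAT and 1.18 ± 1.07 in psWAT. Saa1, Saa2 and Apcs had mean levels of 91.5 to 380.4 in LIV and below 1 in all 8 other organs. Apcs had no count in any library of iBAT, OB, BRN or BST, and Saa2 none in psWAT. Levels were not tested between LIV and the other organs.

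In LIV the levels of Saa1, Saa2, Saa3 and Orm2 spanned wider ranges over the 18 mice than those of the other 6 members, and the high mice were found at several fasting times. Saa1 stood at 91.4, 54.8 and 369.5 normalized CPM at 0 h, at 31, 3281 and 1459 at 2 h, at 41.8, 22.3 and 27.7 at 8 h, at 31.3, 601.2 and 53.5 at 12 h, at 162.1, 147.2 and 65.8 at 18 h, and at 258.3, 56.8 and 91.9 at 22 h. The highest values thus belonged to replicates 2 and 3 of 2 h, followed by 1 mouse of 12 h and 1 fed mouse, and replicate 1 of 2 h lay below all 3 fed mice. Across the 18 mice the highest level was 147.4 times the lowest for Saa1, 320.2 times for Saa2, 53.1 times for Orm2 and 17.9 times for Saa3, but 2.26 to 4.38 times for Itih4, Hp, Fgb, Apcs, Orm1 and Hpx. Differences between times made up 25.2% (Orm2) to 62.6% (Fgb) of the variance of the log2 levels of a member. With no difference between the 6 times 29.4% would lie there on average, and Orm2 lay below that share, with Apcs (29.5%) and Hp (29.8%) close to it. The SD within a time was 1.9 on the log2 scale for Saa1 and 0.291 for Itih4. Saa2 ran from 8.33 to 2666 (median 19.5) normalized CPM, Saa3 from 7.49 to 134.3 (17.2) and Orm2 from 4.7 to 249.8 (14.9). Orm1 ran from 381.2 to 1631 (798.0), Hpx from 3150 to 13782 (5070), Apcs from 47.3 to 189.4 (78.1) and Itih4 from 1095 to 2476 (1314). Replicate 2 of 2 h was the highest mouse for each of these but Orm2, which was highest in replicate 3 of 0 h.

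**Figure D1:**
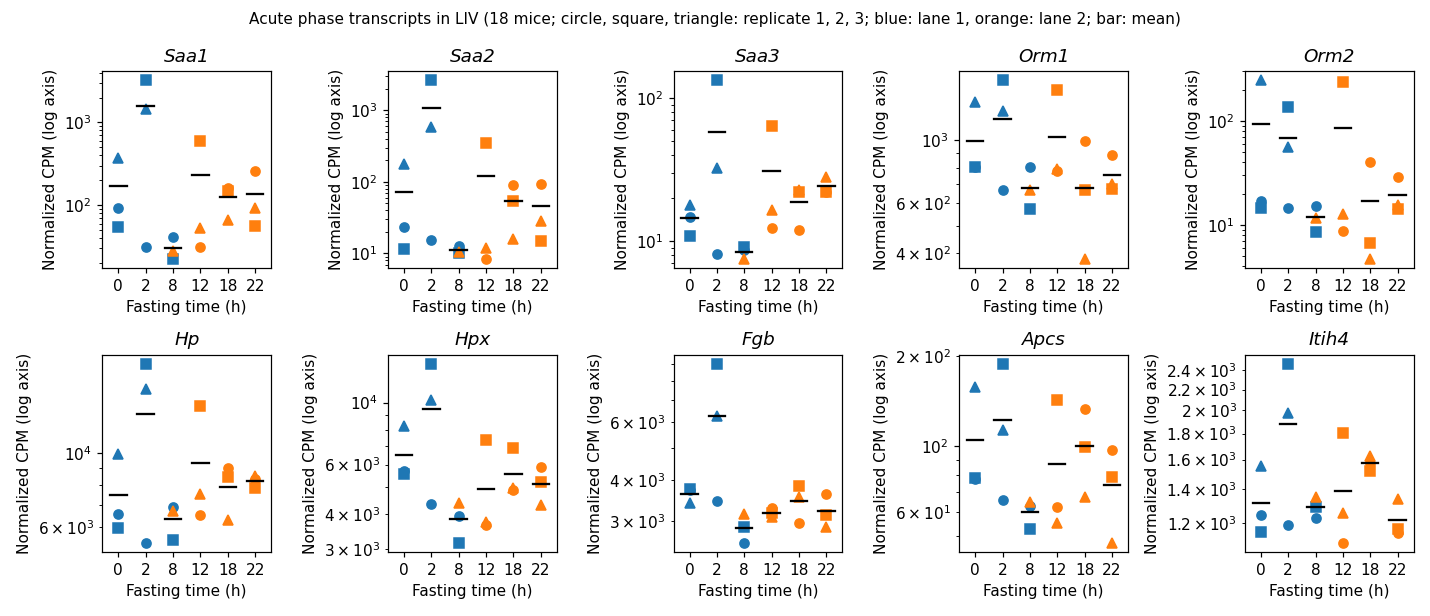
Levels of the 10 members in LIV of 18 mice as normalized CPM on a log axis against hours of fasting, with 1 point per mouse, colour for the sequencing lane, marker shape for the replicate number and a bar at the mean of 3 mice. Replicates 2 and 3 of 2 h hold the highest levels of Saa1, Hp, Hpx and Fgb, and replicate 1 of 2 h lies below the fed mice for Saa1, Hp and Hpx.

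Fgb, which with its sister chains Fga and Fgg forms the clotting protein fibrinogen, was the 1 member that passed edgeR's joint test over the fasting times. It stood at 3729, 3758 and 3405 normalized CPM at 0 h, at 3442, 9050 and 6279 at 2 h, at 2566, 2862 and 3146 at 8 h, at 3270, 3165 and 3085 at 12 h, at 2958, 3817 and 3555 at 18 h, and at 3615, 3113 and 2876 at 22 h. The 3 mice at 8 h lay below the 3 fed mice, and 2 of 3 mice at 2 h lay above them. The same 2 mice at 2 h had Hp at 18391 and 15418, with 5395 in the other, against 6556, 5977 and 9885 at 0 h. Over the 6 times Fgb passed edgeR's joint test (adjusted p 0.0131), which makes 1 of 10 members against 16% of the 14023 genes tested in LIV, a share no higher than that of all genes. The other 9 had adjusted p values of 0.0782 (Saa1) to 0.5 (Apcs), and 3 of 10 members reached an unadjusted p under 0.05. DESeq2 called 4 (Saa1, Saa2, Saa3 and Fgb), beside 25.6% of all genes. Without replicate 2 of 2 h Fgb's adjusted p was 0.082 and 0 members passed, without replicate 1 of 2 h 7 did, and without replicate 2 of 12 h 3 did, where 9.12%, 17.2% and 9.84% of genes passed. Over all alternatives Fgb's adjusted p ran from 1.02e-10 to 0.17. Mice at 0 and 2 h and 2 of those at 8 h were sequenced in lane 1 and the rest in lane 2, and with lane as a covariate edgeR passed 0 members (Fgb adjusted p 0.0746) and 2.1% of genes.

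No member of the set was called in LIV late in the fast or at any single time. With 18 and 22 h as 1 group against 0 h, 3 members lay above and 7 below the fed level, with a median log2 fold change (log2FC) of -0.27, against 0.01 for all genes. A call asked for an absolute log2FC over 1 beside an adjusted p under 0.05. By edgeR 0 of 10 members were called for that contrast, where 1.66% of genes were, with 0 at an unadjusted p under 0.05 and 0 by DESeq2. For the 5 single times against 0 h, which share the fed libraries, edgeR called 0 members, where 4.16% of genes were called at some time, with 5 members under an unadjusted p of 0.05 and 0 by DESeq2. At 2 h the estimates were 3.16 ± 1.42 for Saa1 (SE, adjusted p 0.474), 3.88 ± 1.74 for Saa2 (0.474), 1.99 ± 0.82 for Saa3 (0.411), 0.77 ± 0.37 for Hp (0.524) and 0.76 ± 0.22 for Fgb (0.18), none of which passed after adjustment over 14023 genes. The other 5 had 0.51 ± 0.36 (Hpx, 0.705), 0.48 ± 0.20 (Itih4, 0.383), 0.23 ± 0.39 (Orm1, 0.909), 0.20 ± 0.47 (Apcs, 0.935) and -0.48 ± 1.31 (Orm2, 0.944).

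Other genes of the response in LIV give the setting. Among 21 further acute phase genes 6 passed the joint test over the times, where 16% of all genes did: the pentraxin Crp (adjusted p 0.000718), the lectin Mbl2 (0.0185), Fgg (0.0274), the serpin Serpina3n (0.0291), the metallothionein Mt2 (0.0323) and Fga (0.0339). Crp, which is a minor acute phase protein in mice, was lower at 18 and 22 h, by a log2FC of -0.62 ± 0.11 (SE, adjusted p 0.00227), below the fold asked of a call. The sister fibrinogen chains had log2FC estimates at 2 h of 0.57 ± 0.25 (Fgg) and 0.70 ± 0.34 (Fga, SE), beside 0.76 for Fgb. Of 8 negative acute phase genes, whose output is known to drop in inflammation, 2 passed the joint test that 16% of all genes passed, Ahsg (0.0175) and Trf (0.0316), while albumin (Alb) had an adjusted p of 0.713. The median late log2FC was 0.03 for the further acute phase genes and 0.05 for the negative ones.

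Of 29 inducers and regulators 25 were tested in LIV, and 7 passed the joint test, beside 16% of all genes, among them Il1r1 (adjusted p 0.0031), Socs3 (0.00383), Stat3 (0.0101), Tnfrsf1a (0.0139), Il6st (0.016) and Myd88 (0.0226). Socs3, the feedback inhibitor that Stat3 induces, stood at 11.6, 12.5 and 10.4 normalized CPM at 0 h and at 25.7, 44.7 and 42.1 at 2 h. All 3 mice at 2 h lay above all 3 fed mice, and Socs3 rose by a log2FC of 1.68 ± 0.28 (SE, adjusted p 0.0201) at a time at which 0.057% of genes were called. The interleukin-1 receptor Il1r1 rose as well, by 1.64 ± 0.27 (adjusted p 0.0226). Stat3 stood at 118.1, 102.2 and 77.7 at 0 h and at 118.9, 251.0 and 220.4 at 2 h, high in the same 2 mice as Saa1, with an estimate of 0.96 ± 0.20 (adjusted p 0.0573). Il6 was not kept in LIV, where its level was 0 to 0.433 in each mouse. The joint test was not passed by Lcn2 (0.125), Cebpb (0.144), Cebpd (0.17), Nr3c1 (0.285), Il1b (0.309) or Il6ra (0.518). Of 4 receptors and enzymes that clear haptoglobin, haemopexin or haem, 1 passed this test, the haptoglobin-haemoglobin receptor Cd163 (0.00563), again beside 16% of all genes.

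The levels of most members varied together from mouse to mouse in LIV, and of the 9 members set against Saa1, Saa2 had the highest r. Over 18 mice log2 (normalized CPM + 1) of Saa1 and Saa2 had r = 0.984 and rho = 0.950, each with a permutation p of 1e-05, the smallest that 100000 permutations can give (adjusted p 3e-05 and 4.5e-05 over 9 relations of Saa1 with the other members). Without the 2 mice farthest from the median of Saa1 r was 0.965, and it was 0.986 in lane 1 (n = 8) and 0.980 in lane 2 (n = 10). With Hp the values were r = 0.952 and rho = 0.872 (permutation p 1e-05 and 2e-05, adjusted p 3e-05 and 6e-05), 0.885 without 2 mice, and 0.985 and 0.881 within the lanes. Hpx followed with r = 0.934 and rho = 0.856 (permutation p 1e-05 for each, adjusted p 3e-05 and 4.5e-05), 0.845 without 2 mice, and 0.976 and 0.812 within the lanes. For Saa3, Apcs, Itih4, Orm1 and Orm2 r lay between 0.786 and 0.849 and rho between 0.598 and 0.810, with adjusted permutation p values of 4.5e-05 to 0.00045 for r and 0.000234 to 0.012 for rho. Without 2 mice their r was 0.613 to 0.834, and within lanes it was 0.830 to 0.952 in lane 1 and 0.543 to 0.771 in lane 2.

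Fgb was the exception. Its relation with Saa1 had r = 0.771 and rho = 0.509 (permutation p 0.00083 and 0.0325, adjusted p 0.00083 and 0.0325), but r was 0.259 without the 2 mice farthest from the median and 0.168 in lane 2 against 0.898 in lane 1. It therefore rests on those 2 mice and does not hold within lane 2. In the 2 mice of 0 h and 12 h with Saa1 at 369.5 and 601.2, Fgb stood at 3405 and 3165. The first of these is below the other 2 fed mice (3729 and 3758), and the second lies between the other 2 mice of 12 h (3085 and 3270). Orm2 in these mice stood at 249.8 and 237.0, against 136.2 and 56.7 in the 2 mice of 2 h that had the highest Saa1. By Pearson's r over 14023 genes and 18 mice, the genes most like Saa1 were Saa2 (0.984), Hp (0.952) and Lrg1 (0.945), and those most like Fgb were Fgg (0.958), Serpina3n (0.939) and Steap4 (0.913). Orm1 was most like Slc41a2 (0.925), Orm2 (0.920) and Cyb561 (0.910), and Apcs most like Prg4 (0.916), Fgl1 (0.908) and Cyb561 (0.884).

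Of the 21 further acute phase genes 20 had a positive r with Saa1 in LIV, with a median of 0.640, where 7101 of all 14022 genes were above 0 with a median of 0.006. Lcn2 had 0.917, Fgg 0.763 and Fga 0.586, and the 1 below 0 was the iron hormone hepcidin (Hamp) at -0.785. The 8 negative acute phase genes had a median of 0.146, with 5 above 0 and Alb at -0.291, and the 25 inducers 0.239, with 20 above 0 and Il1b, Socs3 and Stat3 at 0.660, 0.628 and 0.622. Macrophage markers were above 0 in 6 of 6 (median 0.645), and hepatocyte markers in 6 of 12 (median 0.048). The summed hepatocyte markers held 70405 to 101444 CPM of the library total in LIV, Alb being the most abundant at 59784. The summed 5 neutrophil markers held 0.357 to 15.4 CPM in LIV, with S100a9 the most abundant at a mean of 1.52 and Camp below 0.1. That sum and Saa1 had r = 0.779 and rho = 0.730 over 18 mice (permutation p 0.00034 and 0.00083, adjusted p 0.00166 and 0.00747 over 9 organs), with 0.632 without 2 mice (adjusted permutation p 0.0777), 0.857 in lane 1 and 0.624 in lane 2. The relation was not particular to LIV. Saa1 in LIV and the neutrophil sum of CBL had r = 0.777, with 0.731 for BST, 0.618 for iBAT and 0.575 for OB (adjusted permutation p 0.00166 to 0.0236). For psWAT, BRN, pgWAT and STM r was 0.511, 0.472, 0.060 and -0.072 (0.0517 to 0.812). The part of neutrophils in the levels of Saa1 was not tested. In bulk samples fewer cells of a type and less RNA per cell cannot be told apart.

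Since the members varied together in LIV, the 250 bases before their starts were searched on both strands for 3 motifs. RefSeq promoters on GRCm38.p6 were matched for 8 of 10 members, not for Hp and Orm1. Their starts can differ from the gene coordinates given above. The windows of Saa2, Saa3 and Hpx reach into those gene spans, and that of Apcs does not adjoin its span. The C/EBP letters TTGCNNAA were found for Fgb, Hpx, Orm2, Saa1, Saa2 and Saa3, which is 6 of 8, against 9.56% of 32851 promoters. The STAT letters TTCNNNGAA were found for Apcs, Fgb and Itih4 (3 of 8, against 7.02%), and the NF-kB core GGNNTTTCC for Saa3 (1 of 8, against 4.93%). A match describes letters in this window and no binding. Fgb holds a STAT match that begins 162 bases and a C/EBP match that begins 80 bases before its start. The C/EBP match of Orm2 begins at 120 bases, that of Saa1 at 182 and that of Saa3 at 99, and the NF-kB core of Saa3 ends at 179. Shown 5′ to 3′ with the matches in capitals are the windows of Saa1 (chr7:46742981-46743230, minus strand), Saa3 (chr7:46715677-46715926, minus), Orm2 (chr4:63362199-63362448, plus) and Fgb (chr3:83049864-83050113, minus), chosen so that each of the 3 motifs is shown; the matches of Saa2, Hpx, Apcs and Itih4 are not shown.
Saa1: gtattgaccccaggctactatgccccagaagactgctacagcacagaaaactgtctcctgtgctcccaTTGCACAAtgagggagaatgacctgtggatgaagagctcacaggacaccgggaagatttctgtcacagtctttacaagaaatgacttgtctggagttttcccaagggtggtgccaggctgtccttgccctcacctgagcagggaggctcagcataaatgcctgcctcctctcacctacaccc
Saa3: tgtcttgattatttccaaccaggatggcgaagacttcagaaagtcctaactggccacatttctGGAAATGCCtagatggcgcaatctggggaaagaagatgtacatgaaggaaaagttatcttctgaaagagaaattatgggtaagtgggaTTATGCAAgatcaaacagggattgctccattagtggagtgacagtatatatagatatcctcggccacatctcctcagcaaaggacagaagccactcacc
Orm2: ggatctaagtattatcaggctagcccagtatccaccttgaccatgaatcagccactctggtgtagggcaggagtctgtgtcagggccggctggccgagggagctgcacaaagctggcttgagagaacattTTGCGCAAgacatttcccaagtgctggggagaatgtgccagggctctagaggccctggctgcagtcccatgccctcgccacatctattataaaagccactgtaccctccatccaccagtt
Fgb: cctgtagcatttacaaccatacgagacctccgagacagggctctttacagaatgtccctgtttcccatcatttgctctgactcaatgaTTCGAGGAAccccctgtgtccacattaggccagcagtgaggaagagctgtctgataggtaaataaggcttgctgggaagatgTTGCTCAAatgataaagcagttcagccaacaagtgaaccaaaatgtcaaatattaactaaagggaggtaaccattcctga

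In iBAT the haemoglobin scavenger Hp and the carrier Orm1 changed over the fasting times, and Hp was high at 22 h. Hp stood at 923.3, 770.2 and 896.3 normalized CPM at 0 h, at 925.1, 1279 and 1078 at 2 h, at 932.8, 857.9 and 1064 at 8 h, at 1103, 1152 and 1629 at 12 h, at 1093, 756.9 and 1118 at 18 h, and at 2186 and 2010 in the 2 retained mice of 22 h. Both mice of 22 h lay above every other mouse. The library of replicate 2 of 22 h, with 3156101 counts in total, was the smallest retained in iBAT, and that of replicate 3 held 8836608. Orm1 stood at 101.6, 47 and 98.6 at 0 h and averaged 125.7 over the 2 mice of 22 h, the lower of them at 125.3, with 37.2 to 89.2 at the times between. Its 2 values at 22 h were also above all others, but the fed mice and those of 2 to 18 h overlapped. Over the 6 times 2 of the 3 members tested passed the joint test, Hp (adjusted p 0.00191) and Orm1 (0.0185), where 29% of 14529 genes did, and DESeq2 called the same 2 beside 40.5% of genes. At any single time 1 member was called, where 29.8% of genes were, so these counts are of few members against a large background. That member was Hp, higher at 22 h by 1.32 ± 0.22 (SE, adjusted p 0.000544, higher in 2 of 2 mice), where 12.6% of genes were called higher; Orm1 had 0.65 ± 0.29 (adjusted p 0.082). Itih4 was not called (joint adjusted p 0.516).

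For 18 and 22 h against 0 h edgeR called 0 of 3 members in iBAT, where 9.6% of genes were called, with 1 member at an unadjusted p under 0.05 and 0 by DESeq2. Hp had 0.74 ± 0.18 there (adjusted p 0.0115), below the fold asked. Of the adipocyte markers 5 of 7 passed the joint test, beside 29% of all genes, among them the adipokines Cfd and Adipoq, which rose at 22 h by a log2FC of 2.00 ± 0.26 (SE, adjusted p 0.000186) and 1.19 ± 0.19 (0.000503). Their sum was 29575 and 24757 CPM in the 2 mice of 22 h, against 9789 to 14293 at 0 h, with Fabp4 the most abundant at a mean of 9416. Genes of other marker lists moved as well. Of the brown adipocyte markers 4 of 5 passed the joint test, and at 22 h Cox8b rose by 1.99 ± 0.37 (adjusted p 0.000916) and Cidea by 1.06 ± 0.22 (0.00164), while Elovl3 had -1.39 ± 0.48 (0.0315). Of the 12 hepatocyte markers only 3 were tested, and these 3 passed, with Apoa2 higher at 22 h by 2.54 ± 0.52 (0.00146). Apoh, Ahsg, Cps1, Tdo2, F2 and Kng1 averaged below 0.1 CPM in iBAT. Alb was at 0.951 and 0.566 CPM in the 2 mice of 22 h, against 0.185, 0.396 and 0.522 at 0 h. Cyp2e1, which averaged 4808 CPM in pgWAT, was at 246.2 and 417.5 CPM in these 2 mice and makes up most of their hepatocyte sum. Of the erythroid markers 2 of 5 passed, with Hba-a2 higher by 2.06 ± 0.52 (0.00577). In the 2 mice of 22 h and at 0 h the sums were 15292 and 10579 against 6894 to 10041 CPM for the brown adipocyte markers (Ucp1 most abundant), 263.9 and 428.8 against a median of 167.8 for the hepatocyte markers (Cyp2e1) and 511.4 and 661.5 against 147.7 to 457.8 for the erythroid markers (Hbb-bs). Their part in the levels of Hp and Orm1 was not tested. The iBAT libraries of 22 h were sequenced in lanes that hold no other retained iBAT library, so that lane and time cannot be told apart. Without these 2 libraries 0 members passed (Hp adjusted p 0.473, Orm1 0.467), and the share of all genes that passed was 0.449%. Leaving out replicate 2 of 22 h gave 0 (Hp 0.0501), where 6.04% of genes passed, and leaving out replicate 3 of 22 h or replicate 2 or 3 of 8 h gave 1, Hp (29.9%, 21.9% and 22.7% of genes), while without replicate 2 of 0 h, where Orm1 was lowest of the fed mice, 2 were called at a single time. Over all alternatives the joint adjusted p ran from 8.39e-09 to 0.473 for Hp and from 0.000486 to 0.467 for Orm1.

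Across 17 iBAT libraries Hp and the adipocyte marker sum had r = 0.768 and rho = 0.561 (permutation p 0.00091 and 0.0208, adjusted p 0.00364 and 0.0477 over 32 relations in the 3 depots), but 0.369 without 2 mice and 0.002 within lane 5 (n = 7), so that the relation rests on the mice of extreme sums. Orm1 had r = 0.813 and rho = 0.777 (permutation p 5e-05 and 0.0004, adjusted p 0.000533 and 0.00424), with 0.692 without 2 mice and 0.509 in lane 5. The 6 macrophage markers (Lyz2 most abundant, mean 67.3) summed to 31.6 to 189.4 CPM in the fed mice and to 294.4 and 165.7 in those of 22 h, and 1 of 6, C1qa, passed the joint test and rose at 22 h by a log2FC of 1.98 ± 0.41 (SE, adjusted p 0.00173). With their sum Orm1 had r = 0.580 and rho = 0.645 (permutation p 0.0145 and 0.00613, adjusted p 0.0266 and 0.0196), with 0.889 without 2 mice and 0.891 in lane 5. Hp had r = 0.614 and rho = 0.473 (permutation p 0.00931 and 0.0568, adjusted p 0.0213 and 0.0982), but 0.484 without 2 mice and -0.042 in lane 5. Among further acute phase genes 4 of 10 tested in iBAT passed the joint test, Mt1, Cd14, Orm3 and Il1rn, and among inducers 8 of 21 did, where 29% of all genes did. Most of these inducers fell at 22 h. The log2FC was -1.40 for the glucocorticoid receptor Nr3c1 (adjusted p 0.0052), -1.01 for Jak1 (0.0019) and -0.66 for Il6st (0.00886). It was -0.99 for Jak2 (0.00941), -1.20 for Osmr (0.0246) and -0.64 for Lifr (0.0374). The C/EBP factors Cebpd and Cebpa rose by 1.99 ± 0.39 (SE, 0.00124) and 0.77 ± 0.25 (0.0203). Cebpb, which did not pass the joint test (0.0639), had 1.46 ± 0.44 at 22 h (0.016). Saa1, Saa2, Saa3, Orm2, Hpx, Fgb and Apcs were not tested over time in iBAT. Of these, Saa1 and Saa3 were highest in replicate 2 of 22 h, at 2.55 and 3.4 normalized CPM from 6 and 8 counts, with 0 to 0.417 for each elsewhere.

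**Figure D2:**
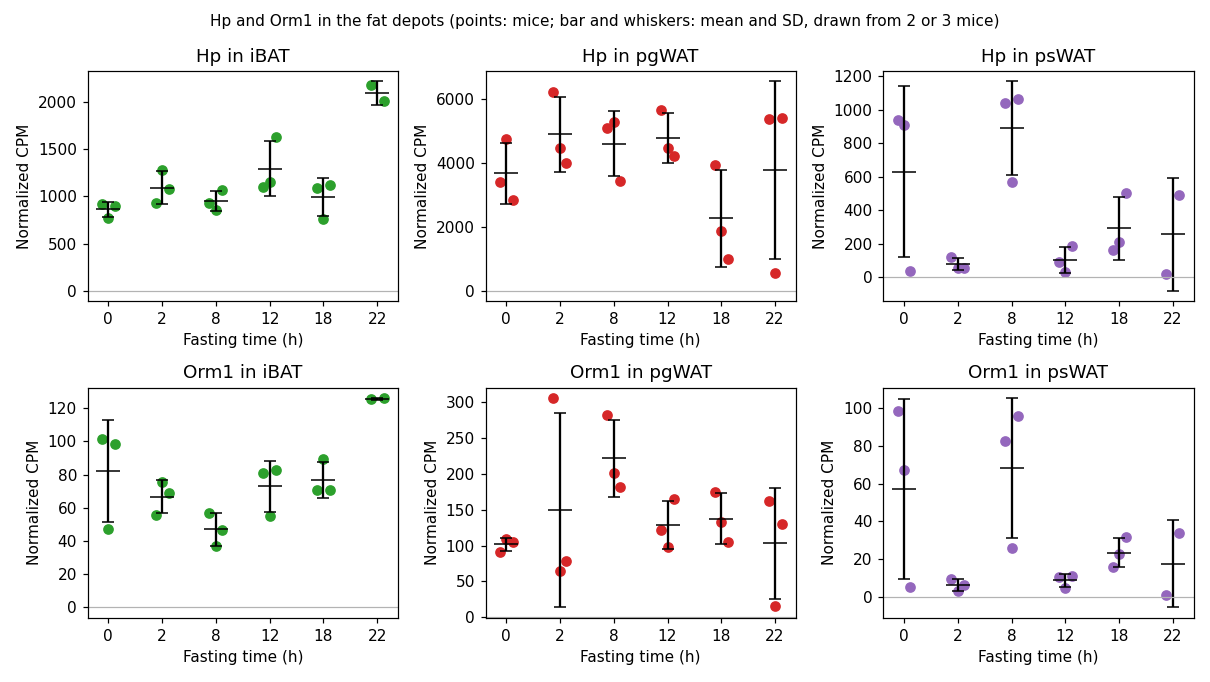
Normalized CPM of Hp and Orm1 in iBAT, pgWAT and psWAT against hours of fasting, with points for mice, and mean and SD of 2 or 3 mice. In iBAT the 2 mice of 22 h have the highest Hp, at 2186 and 2010, while in psWAT Hp runs from 18.6 to 1063 with a wide spread within times.

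In pgWAT, the fat depot with the highest mean levels of Hp, Orm1 and Saa3, no member was called over the fasting times by edgeR. Hp ranged from 561.4 to 6198 normalized CPM (median 4326), Orm1 from 16 to 305.9 (median 126.3) and Saa3 from 3.83 to 18.8 (median 14.9). The lowest value of each belonged to replicate 2 of 22 h, in which the adipocyte marker sum was 6562 CPM, against 34426 to 69150 in the other 17 mice. Hpx, Fgb and Itih4 were at 164.9, 154.3 and 42.1 in replicate 2 of 18 h, against medians of 0.573, 0.138 and 4.18. That library also held Alb at 3392 CPM, which is 5.25% of the Alb level in the liver of the same mouse. The joint test of edgeR called 0 of 7 members, where it called 0% of 16412 genes, with 3 members at an unadjusted p under 0.05. DESeq2 called 1 (Hpx) and 3.39% of genes. For 18 and 22 h against 0 h it called 0 (0.00609% of genes), with 2 at an unadjusted p and 1 by DESeq2 (Hpx, beside 3.53% of genes), and for the single times 0 (0.00609%), with 4 at an unadjusted p and 1 by DESeq2 (beside 5.26%). The median late log2FC was 0.80 for the 7 members and 0.05 for all genes, beside 5.33 for the 12 hepatocyte markers. Over the 18 mice Hp and the adipocyte marker sum had r = 0.782 and rho = 0.723 (permutation p 0.00106 and 0.00109, adjusted p 0.00377 and 0.00581), with 0.814 in lane 5 and 0.826 in lane 6, but 0.432 without 2 mice. With the macrophage marker sum, 440.0 to 1917 CPM (Lyz2 most abundant, mean 859.1), Hp had r = 0.874 and rho = 0.540 (permutation p 0.00058 and 0.0224, adjusted p 0.00265 and 0.0477), with 0.723 and 0.868 in these lanes, but 0.257 without 2 mice. Saa3 had r = 0.787 and rho = 0.676 with that sum (permutation p 0.00045 and 0.00266, adjusted p 0.00265 and 0.0106), with 0.366 and 0.871 in the lanes and 0.336 without 2 mice. Over all mice the relation of Saa3 therefore rests on the 2 mice left out. That of Hp also fell without 2 mice, but it held within lane 5. Replicate 2 of 22 h, lowest in Hp, Saa3 and both marker sums, is in lane 6, so that the values of that lane are no check apart from it. Orm1 with the adipocyte sum had r = 0.853 and rho = 0.622 (permutation p 0.0005 and 0.00689, adjusted p 0.00265 and 0.02), with 0.247 and 0.975 in the lanes and 0.633 without 2 mice. Saa3 with it had r = 0.739 and rho = 0.738 (permutation p 0.0003 and 0.00067, adjusted p 0.0024 and 0.00429), with 0.456 and 0.799 in the lanes and 0.578 without 2 mice. With the macrophage sum Orm1 had r = 0.745 and rho = 0.496 (permutation p 0.00507 and 0.0377, adjusted p 0.0147 and 0.071). This r was 0.199 and 0.886 in the lanes and 0.347 without 2 mice. With the lymphocyte and mesothelial sums Orm1 had r = 0.586 and -0.555 (adjusted permutation p 0.0201 and 0.0266), but 0.337 and -0.137 without 2 mice.

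In psWAT the levels of Hp and Orm1 spanned wide ranges within fasting times and were high in libraries rich in adipocyte transcripts. Hp stood at 941.9, 911.4 and 39.5 normalized CPM at 0 h, at 120.9, 57.7 and 57.2 at 2 h, at 1042, 570.3 and 1063 at 8 h, at 92, 34.5 and 185.8 at 12 h, at 161.3, 210.0 and 505.3 at 18 h, and at 18.6 and 492.5 in the 2 retained mice of 22 h. The 3 mice of 2 h were low and those of 8 h high, while the fed mice covered most of the range. Orm1 ran from 1.17 to 98.8, high and low in much the same mice. The summed adipocyte markers ranged from 633.9 to 36378 CPM (Fabp4 most abundant, mean 5233), and the summed lymphocyte markers from 88.7 to 2447 CPM. Over 17 mice Hp and the adipocyte sum had r = 0.965 and rho = 0.958, with a permutation p of 1e-05, the smallest possible, for each (adjusted p 0.00016 for each). This r was 0.970 without 2 mice, 0.931 in lane 5 (n = 10) and 0.995 in lane 7 (n = 6). For Orm1 it was r = 0.974 and rho = 0.983 (permutation p 1e-05 and adjusted p 0.00016 for each), 0.963 without 2 mice, and 0.970 and 0.962 within the lanes. With the lymphocyte sum Hp had r = -0.646 and rho = -0.770 (permutation p 0.00374 and 0.00053, adjusted p 0.012 and 0.00424), with -0.804 without 2 mice, and -0.428 in lane 5 and -0.720 in lane 7. With the macrophage sum, 440.6 to 2681 CPM (Lyz2 most abundant, mean 1061), Hp had r = -0.563 and rho = -0.610 (permutation p 0.02 and 0.011, adjusted p 0.0338 and 0.0292), with -0.593 without 2 mice, and -0.205 and -0.847 in these lanes. Saa3 ran from 0 to 3.02 normalized CPM. With the adipocyte sum it had r = -0.379 and rho = -0.327 (permutation p 0.134 and 0.198, adjusted p 0.179 and 0.263), with -0.550 without 2 mice, -0.357 and -0.360 in the lanes, and -0.636 for deviations from the mean of the time (permutation p 0.00591, adjusted p 0.0145). The mesothelial sum, 0 to 82.4 CPM, is in psWAT mainly a level of Krt19 (mean 9.42). Krt19 was the 1 of its 5 markers to average at least 1 CPM, and Upk3b and Wt1 averaged below 0.1. With that sum Saa3 had r = -0.615 and rho = -0.674 (permutation p 0.00617 and 0.00392, adjusted p 0.0165 and 0.0139), with -0.580 without 2 mice, and -0.620 and -0.457 in the lanes. With the macrophage sum Saa3 had r = 0.390 and rho = 0.405 (adjusted permutation p 0.167 and 0.158), with 0.287 and 0.169 in the lanes. For deviations from the mean of the time this r was 0.601 (adjusted p 0.0231). With the lymphocyte sum Saa3 had r = 0.375 and rho = 0.558 (adjusted permutation p 0.179 and 0.0477), with 0.284 and 0.063 in the lanes. For such deviations it was 0.493 (adjusted p 0.0735).

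In the tests over time edgeR called 0 of 4 members in psWAT jointly, where 0% of 16721 genes passed, with 2 at an unadjusted p under 0.05 and 2 by DESeq2 (Orm1 and Hp), which called 12.3% of genes. The contrast of 18 and 22 h with 0 h gave 0 members (0% of genes), with 0 at an unadjusted p and 0 by DESeq2, and the single times 0 (0%), with 3 at an unadjusted p and 1 by DESeq2 (beside 2.83% of genes). The median late log2FC was -1.28 for the 4 members and -0.01 for all genes, beside -1.09 for the 7 adipocyte markers. Replicate 3 of 12 h held 3158 CPM of cerebellar granule neuron markers. Fgb, not tested over time in psWAT, was at 10.6 and 9.02 normalized CPM in replicates 2 and 3 of 18 h and at 0 in the other 15. Those 2 libraries had mesothelial marker sums of 62.5 and 82.4 CPM, a sum that in psWAT is mainly Krt19.

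**Figure D3:**
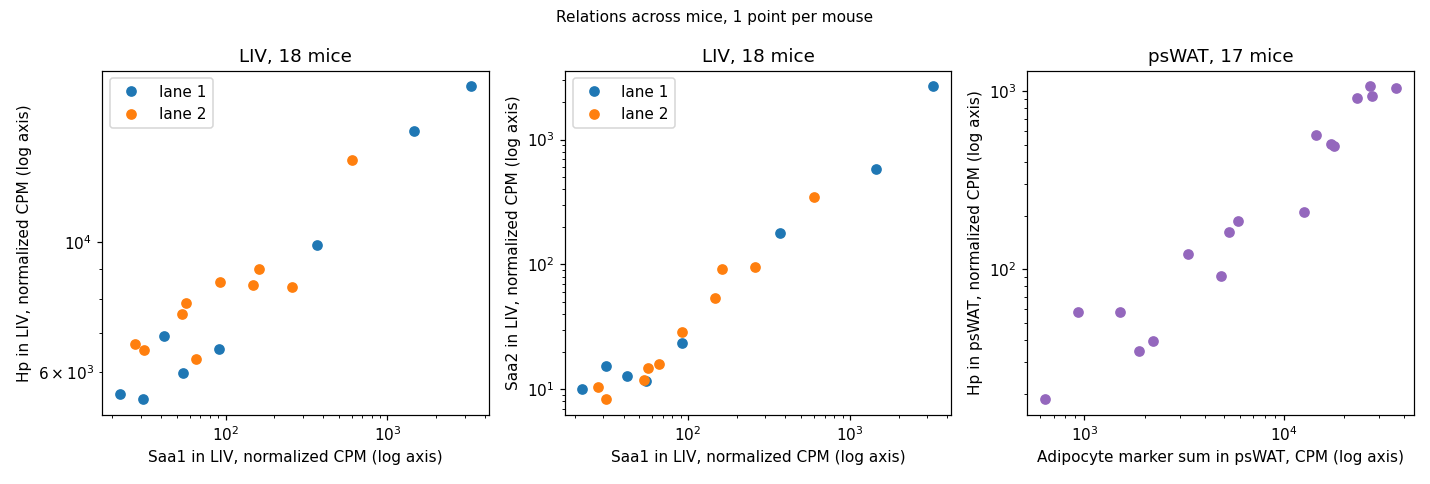
Relations between libraries on log axes, with 1 point per mouse: Saa1 against Hp and against Saa2 in LIV (normalized CPM, 18 mice, colour for lane), and the summed adipocyte markers against Hp in psWAT (17 mice). The points follow r of 0.952, 0.984 and 0.965.

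Between the fat depots the members differed, with each mouse as a block and 18864 genes tested. Hp ran from 561.4 to 6198 (median 4326) normalized CPM in pgWAT, from 756.9 to 2186 (median 1078) in iBAT and from 18.6 to 1063 (median 185.8) in psWAT. The depots overlapped for Hp. Saa3 ran from 3.83 to 18.8 (median 14.9) in pgWAT, from 0 to 3.02 (median 0.91) in psWAT and from 0 to 3.4 (median 0) in iBAT, so that every pgWAT library lay above those of the other depots. In pgWAT against psWAT 7 of 7 members tested were higher, where 19.3% of genes were (43% in either direction), with a median log2FC of 2.57 against -0.07 for all genes. Taken by itself neither other depot kept Orm2, Hpx or Fgb, so these owe their place in the test to pgWAT, and the counts in the contrasts with pgWAT are descriptions. Hp was higher by 3.78 ± 0.46 (SE, adjusted p 5.59e-09), Saa3 by 3.66 ± 0.46 (1.11e-08), Orm1 by 2.57 ± 0.40 (6.26e-07), Itih4 by 2.32 ± 0.35 (3.17e-07), Orm2 by 1.89 ± 0.44 (0.000258) and Hpx by 1.70 ± 0.63 (0.0153). Fgb had 3.27 ± 0.88 (0.00237) by edgeR but was not called by DESeq2, at 2.43 (adjusted p 0.544), which called the other 6. The 7 adipocyte markers were higher too, with a median of 2.71, as were the 5 mesothelial markers (8.00). Hepatocyte markers were higher in 10 of 12 and lower in 1 (median 3.16), and the 5 lymphocyte markers were lower (-6.54). The part of all these markers in the members' differences was not tested.

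Within lane 5, which holds 8 pgWAT and 10 psWAT libraries, mean Hp was 4222 against 185.4 normalized CPM, a difference of 5.28 in mean log2 (CPM + 1), with 3.42 for Orm1, 2.64 for Saa3, 1.49 for Itih4 and 0.66 for Orm2. Differences within a lane use no mouse block and mix fasting times. In lane 5 the pgWAT libraries are from 0 to 12 h and the psWAT ones from 0 to 22 h. Fgb, at 0.169 against 1.06 (-0.18), and Hpx, at 0.585 against 0.505 (0.03), do not show the difference within that lane. Without the mouse whose pgWAT library of 18 h held liver transcripts (mouse 14) 6 members were called, Hpx no longer. In iBAT against pgWAT 5 of 7 members were lower, where 24.1% of genes were (38.7% in either direction): Saa3 by -6.48 ± 0.59 (adjusted p 4.94e-12), Hp by -1.69 ± 0.41 (0.000544), Hpx by -1.65 ± 0.65 (0.0248), Orm2 by -1.33 ± 0.46 (0.0118) and Fgb, with 1 count in all 17 iBAT libraries and not called by DESeq2 (adjusted p 0.506). Itih4 had -0.91 ± 0.33 (0.0162), below the fold asked, and Orm1 -0.68 ± 0.38 (0.109). Within lane 5 (7 iBAT and 8 pgWAT libraries) the differences in mean log2 (CPM + 1) were -3.58 for Saa3 and -1.97 for Hp. They were -0.83 for Itih4, -0.68 for Orm1, -0.49 for Orm2 and -0.18 for Fgb. Hpx, at 0.475 against 0.585 normalized CPM (-0.08), does not show the difference within that lane. Of the 5 members called lower, iBAT by itself kept Hp alone in the filter, so the count supports nothing. Macrophage markers were lower in 6 of 6 (median log2FC -2.91), adipocyte markers in 4 of 7 (-1.47) and hepatocyte markers in 9 of 12 (-3.81). Without mouse 4 or 14, 4 members were called, and without mouse 11, 6. In iBAT against psWAT 5 of 7 were called (50.3% of genes), 3 higher (20.3%) and 2 lower (29.9%). Hp was higher by 2.09 ± 0.44 (adjusted p 6.91e-05), Orm1 by 1.89 ± 0.40 (8.04e-05) and Itih4 by 1.40 ± 0.35 (0.00054), and Saa3 was lower by -2.82 ± 0.61 (9.71e-05), as was Fgb, which was not called without mouse 14 (4 members) or by DESeq2 (adjusted p 0.941). In the filter psWAT by itself kept Saa3 and iBAT kept neither Saa3 nor Fgb, so these 2 lower calls are descriptions. Orm2 had 0.57 ± 0.48 (0.286) and Hpx 0.06 ± 0.72 (0.95). Within lane 5 (7 iBAT and 10 psWAT libraries) the differences were 3.31 for Hp, 2.74 for Orm1, 0.65 for Itih4 and 0.17 for Orm2. They were -0.94 for Saa3, -0.35 for Fgb and -0.05 for Hpx. Macrophage markers were lower there in 5 of 6 (median -1.94) and adipocyte markers higher in 4 of 7 (1.85), and the part of these cells in the members' differences was not tested. RNA of both white depots was extracted with Qiazol and a lipid tissue kit and that of iBAT with another buffer and kit, so kit and depot cannot be told apart in the contrasts with iBAT.

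Whether the late fast acted differently in the depots was tested as an interaction. By edgeR 0 of 7 members passed for pgWAT against psWAT (0% of genes), 0 for iBAT against psWAT (0.668%) and 0 for iBAT against pgWAT (0.0106%), with 2 (Hpx and Itih4), 0 and 0 at an unadjusted p under 0.05; DESeq2 was not run for it. For Fgb no SE could be estimated (p of 1 in each contrast), which leaves 6 members. Of 14 relations between the level of a member in LIV and in a fat depot of the same mouse, 0 passed an adjusted permutation p of 0.05. Hp in psWAT came nearest, with r = -0.626 and rho = -0.561 (permutation p 0.00666 and 0.0213, adjusted p 0.0932 and 0.154), -0.598 without 2 mice, and -0.474 and -0.939 in psWAT lanes 5 and 7. The mice with high Saa1 in LIV at 2 h, replicates 2 and 3, had Hp in psWAT at 57.7 and 57.2, and their Hp in iBAT was 1279 and 1078. Replicate 1 of 2 h, with Saa1 in LIV at 31, had Hp at 120.9 in psWAT and 925.1 in iBAT. Mice of 12 h and 22 h had lower Hp in psWAT still, down to 34.5 and 18.6.

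In STM 5 members were tested at low levels, and none was called by edgeR. Hp, the most abundant there, averaged 22.2 normalized CPM and was at 54.5 and 136.1 CPM of the library total in replicate 3 of 0 h and replicate 2 of 12 h, against a median of 9.45. These 2 libraries held Alb at 338.6 and 779.8 CPM, which is 0.608% and 1.49% of the Alb level in the liver of the same mouse. Over the 6 times edgeR called 0 of 5 members in STM, where 6.55% of genes passed, with 5 at an unadjusted p under 0.05 and 5 by DESeq2, which called 17.2% of genes. The smallest adjusted p values were 0.0534 (Fgb), 0.065 (Hpx) and 0.0878 (Itih4). Hp in OB (adjusted p 0.287, where 15.4% of genes passed) and Hpx in BRN (0.734, where 0.00597% did) were not called either, with 0 at an unadjusted p and 0 by DESeq2. In CBL and BST no member reached the filter, and their mean levels there were at most 0.326.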

How the data were processed

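The authors aligned single organs' mRNA reads with TopHat2 2.1.1 to GRCm38.p5 and counted them per gene with HTSeq 0.9.1, and the deposited table holds these counts, not normalized, for 162 libraries. The 5 libraries that the study left out for low totals were left out here too. Tests used edgeR 4.0.16 quasi-likelihood with TMM factors and the robust option, per organ with fasting time as a factor, or over the fat depots with the mouse as a block, with Benjamini-Hochberg adjustment over all genes tested. Two-sided permutation tests of correlations used 100000 draws. DESeq2 1.42.0 was the other tool. R was 4.3.3, limma 3.58.1, Python 3.11.15, pandas 2.3.3 and Biopython 1.88. The gene tests and correlations were tested on simulated data. The members and lists were chosen with earlier results of these data known. All 10 members were looked at in each comparison and are given by value, range or count; from other lists come the called genes, up to 8 by adjusted p, and a fixed set of inducers and acute phase genes. A few genes of these lists are not reported here. Alternatives were other scalings, filters, blocks, lanes, trends and left-out libraries. Another 5 were added after seeing the data: leaving out libraries rich in Alb, Apoa2 and Ahsg, 1 psWAT library with granule neuron markers, or the 22 h iBAT libraries, a bias-adjusted fit with no filter, and the robust option off. Lanes were read from library names. The 3 mice of a group are separate animals.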

Additional observations from a re-analysis of the deposited data

Results flagged for a closer look

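In iBAT the library of 22 h replicate 1 was left out of the comparisons for its low total, and 3 members stood above the fed mice in it. Orm1 was at 115.2 CPM of the library total, where the 3 fed mice had 30.1 to 74. Hp was at 1506, against 493.3 to 672.8, and Itih4 at 9.26, from 25 counts, against 1.36 to 1.85. Its adipocyte marker sum was 24652 CPM.

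In some pairs of organs all mice of a time lay above the fed mice in 1 organ and all lay below them in the other. These opposite directions were not tested. At 8 h the mean of Saa3 was 1.84 times the fed mean in pgWAT and 0.584 times in LIV, and that of Orm1 was 2.17 times in pgWAT and 0.686 times in LIV. At 22 h Orm1 was at 1.52 times the fed mean in iBAT. In STM Orm1 had 5, 4 and 0 counts at 22 h, too few for a fold, with a mean of 0.418 normalized CPM against 3.95 at 0 h. Hp at 22 h was at 2.43 times the fed mean in iBAT and at 0.0901 times in STM. Fgb at 22 h was at least 15.1-fold higher than the floor of 3 counts per fed library in pgWAT as a mean over 3 mice, where fed libraries held 0 counts, and at least 4.33-fold without the highest mouse. That mouse, replicate 1, had 66 counts of Fgb, against 13 and 4, and its library held Alb at 200.6 CPM. In STM Fgb had 14, 5 and 98 counts at 0 h and 1, 0 and 0 at 22 h, too few for a fold. The fed mean in STM includes replicate 3, whose library held Alb at 338.6 CPM. Without it Hp at 22 h was at 0.205 times the fed mean in STM.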

How the results depend on the processing

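Counts of members called were set against 186 values under other settings, of which 163 were within 1.5 times and 23 were not, and against 264 with 1 library or mouse left out, of which 255 were within 1.5 times. Unless a cause is named, the cause of a move was not tested. Over the 6 times in LIV 1 was called, beside 16% of genes. DESeq2 called 4 (25.6% of genes), lane as a covariate 0 (2.1%), a linear trend 0 (9.05%), and the robust option switched off 3 (16%). With no filter edgeR called 10, beside 15.8% of genes. It then estimated an infinite prior df for 25595 of 25595 genes, so that a gene's own spread between mice does not enter its test. The bias-adjusted fit with no filter (0 infinite) called 0, beside 8.58% of genes. The same unfiltered edgeR fit called 1 in LIV at 18 and 22 h and 4 at single times. It also called 1 in OB (14.2% of genes in the joint test), 1 in CBL (8.09%) and 2 in STM (5.59%). In STM DESeq2 called 5 (17.2%), the bias-adjusted fit 3 (5.48%) and the robust option off 3 (6.5%). In iBAT over the 6 times a linear trend gave 1 of 2 (22.7% of genes). Leaving out 22 h gave 0 there (0.449%) and 0 at single times, with fewer libraries tested. With no fold threshold 1 was called at 18 and 22 h. DESeq2 called 1 in pgWAT over the times, 1 late and 1 at single times, and in psWAT 2 over the times and 1 at single times.

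With 1 library left out in turn, the counts over the times ran from 0 to 7 in LIV, 0 to 2 in iBAT and 0 to 0 in pgWAT and psWAT. At 18 and 22 h they were 0 to 0 in all 4 organs, and at single times 0 to 1 in LIV, 1 to 2 in iBAT and 0 to 0 in pgWAT and psWAT. With 1 mouse left out they were 6 to 7 for pgWAT and psWAT, 4 to 6 for iBAT and pgWAT, and 4 to 5 for iBAT and psWAT. Under DESeq2 16 of 21 depot differences kept both direction and call. Hpx in iBAT against psWAT turned from 0.06 to -0.10, Fgb lost its call in all 3 contrasts (2.43, -2.77 and -0.34) and Itih4 gained one in iBAT against pgWAT (-0.91 to -1.06). With all libraries Orm1 at 22 h in iBAT had 0.76 (adjusted p 0.0282), below the fold asked. With CPM of library totals 1 of 40 levels moved by over 1 SD, Itih4 in LIV from 1443 to 916.1. All LIV levels were lower on that scale, such as Hp at 5529 in place of 8727 and Orm1 at 561.2 in place of 885.5. Hp in pgWAT went from 3988 to 4170, so LIV and pgWAT lay closer together.

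The replicate block changed no call (1 member in LIV, 2 in iBAT and 0 elsewhere). Same-numbered libraries share only a number, with mean correlations of -0.0798 to 0.16 by organ and minima of -0.773 to -0.229. The lane covariate could not be estimated in iBAT, CBL and BST and was not run there. The planned rule on hepatocyte markers left out libraries in STM alone.

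With 3 mice at a time, and 2 at 22 h in iBAT and psWAT, differences smaller than the spread between mice were not detectable. In the smallest iBAT and psWAT libraries members under 0.951 and 0.732 CPM lie below the floor of 3 counts, and Saa1, Saa2, Orm2, Hpx, Fgb and Apcs were not tested over time in either depot. Lane and fasting time overlap in LIV and cannot be told apart at 22 h in iBAT. The depot contrasts with iBAT also differ in extraction kit.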
